A study of Mus musculus with 6 samples.

Results

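Zscan4c, Zscan4d, Zscan4f, Zfp352, Dppa2 and Dppa4 are 6 genes tied to the two-cell-like state of mouse embryonic stem cells. They were chosen by name, and the data on them are the ATAC-seq peaks that lay between 20 kb before and 20 kb after each gene of the GENCODE M1 annotation on mm9. In total, 12 of 125791 peaks, in 8 of 65518 merged regions, met this rule. All 6 genes were in the annotation, among 22367 protein-coding genes.

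The main wave of zygotic transcription in the mouse comes at the two-cell stage, and a rare, changing subset of embryonic stem cells switches on many genes of that stage. Zscan4 is a family of tandem copies that encode proteins with a SCAN domain and zinc fingers, known for telomere maintenance, and its expression marks two-cell-like cells. Zfp352 encodes a zinc finger protein of the early embryo. Dppa2 and Dppa4 encode nuclear partners with a SAP domain, expressed throughout pluripotent cells, that act upstream of Dux, the homeodomain factor that turns on the two-cell genes.

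ATAC-seq, which reads out open DNA through adapters inserted by a transposase, was applied to 3 states of J1 cells, an embryonic stem cell line labelled as strain 129SV. Embryonic stem cells (ESCs) were grown in serum and LIF with CHIR99021 and PD0325901, inhibitors of GSK3 and MEK. Expanded potential stem cells (EPSCs) of the Deng type (D-EPSCs), derived from the ESCs, received LIF, CHIR99021, dimethindene maleate and minocycline hydrochloride in N2B27 with knockout serum replacement (KSR). Those of the Liu type (L-EPSCs) received LIF, CHIR99021, PD0325901, A-419259, XAV939, JNK inhibitor VIII and SB203580 in DMEM/F12 with KSR. LIF and CHIR99021 were thus common to all states, while PD0325901 was common to ESCs and L-EPSCs. Each state was sequenced as 2 technical replicates, and the deposited data are a single peak list per state with no score. Therefore the depth behind a list is unknown, no replicate test was possible, and every difference below is a difference between 3 lists.

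There were 28965 peaks for ESCs, 50225 for D-EPSCs and 46601 for L-EPSCs. A shorter list has a peak at fewer places, so counts are read against the share of all coding genes that met the same criterion. A peak within 1 kb of a start was present at 52.3% of coding genes for ESCs, 64.2% for D-EPSCs and 61.5% for L-EPSCs. Of 6 pluripotent cell markers, 5, 6 and 6 carried one within 1 kb of a start in the ESC, D-EPSC and L-EPSC list, respectively, and Nanog was the exception in ESCs. Of 6 fibroblast markers, which would mark feeder cells, 2, 4 and 1 had one, with differences between lists at Col1a1, Col1a2, Twist2 and Thy1. According to the methods, both EPSC types had been taken off feeders several passages before use, and the part of feeder cells in the peaks below was not tested. A list made from a whole culture also cannot tell apart chromatin open in few cells from chromatin slightly open in many.

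The sequences before the starts of the 3 Zscan4 members show how much the copies have in common. All are on mm9, Zscan4c at chr7:11590821-11591070 on the plus strand, Zscan4d at chr7:11751532-11751780 on the minus strand and Zscan4f at chr7:11983015-11983263 on the plus strand. They are aligned to Zscan4c and written in the direction of transcription, and capitals mark bases that differ from Zscan4c.
Zscan4c: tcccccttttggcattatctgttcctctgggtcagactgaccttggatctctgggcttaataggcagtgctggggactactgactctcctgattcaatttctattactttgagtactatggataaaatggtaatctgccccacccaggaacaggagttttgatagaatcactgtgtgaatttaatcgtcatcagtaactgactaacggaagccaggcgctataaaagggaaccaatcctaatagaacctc
Zscan4d: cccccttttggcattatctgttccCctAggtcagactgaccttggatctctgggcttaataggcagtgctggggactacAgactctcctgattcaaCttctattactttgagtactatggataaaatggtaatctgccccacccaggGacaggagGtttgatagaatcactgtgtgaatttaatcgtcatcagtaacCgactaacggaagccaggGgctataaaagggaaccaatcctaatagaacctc
Zscan4f: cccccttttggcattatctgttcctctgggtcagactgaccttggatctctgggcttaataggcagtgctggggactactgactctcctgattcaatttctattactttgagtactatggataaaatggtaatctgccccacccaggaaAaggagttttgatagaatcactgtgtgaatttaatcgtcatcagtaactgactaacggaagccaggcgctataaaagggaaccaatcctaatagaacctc
Zscan4f differed from Zscan4c in 1 of 249 aligned bases, an identity of 99.6%. Zscan4d differed in 8 of 249 bases, an identity of 96.8%, and its annotated start lies 34 bases downstream of the aligned place. The letters TATAAA began 31 bases before the starts of Zscan4c and Zscan4f and 65 bases before that of Zscan4d. These letters were present in the 250 bp before the start of 12.3% of coding genes. All 3 promoters also held TGACCT, the reverse strand of the nuclear receptor motif AGGTCA, which 12.5% of coding promoters had.

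All but 2 of the 12 peaks lay around Dppa2 and Dppa4. The next sequences are the shared or central bases of its 3 regions with a peak in more than 1 list, on mm9, plus strand. The region at chr16:48303660-48303959 had a peak in all 3 lists, that at chr16:48309082-48309328 in ESCs and L-EPSCs, and that at chr16:48310278-48310577, just before the Dppa2 start, in both EPSC lists. Capitals mark TATAAA.
All 3 lists: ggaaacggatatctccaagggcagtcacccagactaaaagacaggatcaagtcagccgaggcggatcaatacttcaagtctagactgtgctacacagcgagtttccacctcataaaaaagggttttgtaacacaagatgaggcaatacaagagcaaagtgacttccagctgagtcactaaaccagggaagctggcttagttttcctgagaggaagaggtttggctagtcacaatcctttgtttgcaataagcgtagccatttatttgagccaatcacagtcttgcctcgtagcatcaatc
ESC and L-EPSC: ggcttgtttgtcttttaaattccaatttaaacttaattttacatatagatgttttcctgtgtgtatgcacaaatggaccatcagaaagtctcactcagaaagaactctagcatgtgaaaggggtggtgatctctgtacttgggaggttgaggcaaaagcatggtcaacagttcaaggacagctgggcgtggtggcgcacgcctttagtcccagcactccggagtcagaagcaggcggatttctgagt
D-EPSC and L-EPSC: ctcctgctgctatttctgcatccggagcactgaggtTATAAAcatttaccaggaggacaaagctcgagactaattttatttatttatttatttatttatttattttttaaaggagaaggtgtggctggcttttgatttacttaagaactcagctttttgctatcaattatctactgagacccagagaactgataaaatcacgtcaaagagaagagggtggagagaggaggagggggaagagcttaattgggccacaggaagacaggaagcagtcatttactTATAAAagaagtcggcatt
The second TATAAA of the last sequence began 31 bases before the Dppa2 start. The letters occurred in 10.2% of D-EPSC peaks and 10.6% of L-EPSC peaks within 400 bp around the midpoint.

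Sorted by list, 1 of the 8 regions had a peak in all lists, 1 in both EPSC types, 1 in ESCs and L-EPSCs, 3 in D-EPSCs alone and 2 in L-EPSCs alone. Over all merged regions these classes made up 33.2%, 18.4%, 2.92%, 22.3% and 15.8%. No region had a peak in ESCs alone, a class of 5.12% of all regions. With a reciprocal overlap of 50% the ESC and L-EPSC region split into 1 region of ESCs alone and 1 of L-EPSCs alone.

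Of the 6 genes, Dppa2 was the only one with a peak within 1 kb of an annotated start, and it had this peak in D-EPSCs and L-EPSCs and not in ESCs. The count of members was 0 for ESCs and 1 for either EPSC type, against 52.3%, 64.2% and 61.5% of all coding genes in the order ESC, D-EPSC, L-EPSC. A start peak in both EPSC lists without one in ESCs was found at 9.09% of coding genes, or 2033 genes, Dppa2 among them. The other 5 members had no start peak in any list, as had 34.4% of coding genes. The D-EPSC peak over the Dppa2 start was 542 bp wide and the L-EPSC peak 511 bp. Their edges lay 15 bp apart on the upstream side and 46 bp apart on the downstream side, so they marked nearly the same bases. The D-EPSC peak reached 409 bases before the start and 133 bases into the gene, and the L-EPSC peak 424 and 87 bases. Their widths were at percentiles 68.7 and 67.2 of their lists.

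The nearest ESC peak to the Dppa2 start, 265 bp wide, ended 1244 bp before it. It shared 247 bp with a wider L-EPSC peak of 588 bp that also stood apart from the start, by 1262 bp. D-EPSCs had no peak there. The ESC and L-EPSC combination was found in 2.92% of all merged regions. L-EPSCs thus had separate peaks at this upstream site and over the start, whereas ESCs had the former and D-EPSCs the latter.

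A single region, between Dppa4 and Dppa2, had a peak in all 3 lists, as had 33.2% of all merged regions. Its ESC peak was 795 bp wide, wider than 90.2% of ESC peaks, while the D-EPSC peak was 560 bp and the L-EPSC peak 473 bp, at percentiles 70.3 and 63.6. All 3 covered a stretch of 353 bp. It was centred 6941 bp before the Dppa2 start, in intergenic sequence, and lay downstream of the Dppa4 end. Both genes have the same orientation, and the window of each reaches into the other gene, so the 3 regions between them count for both.

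**Figure D1:**
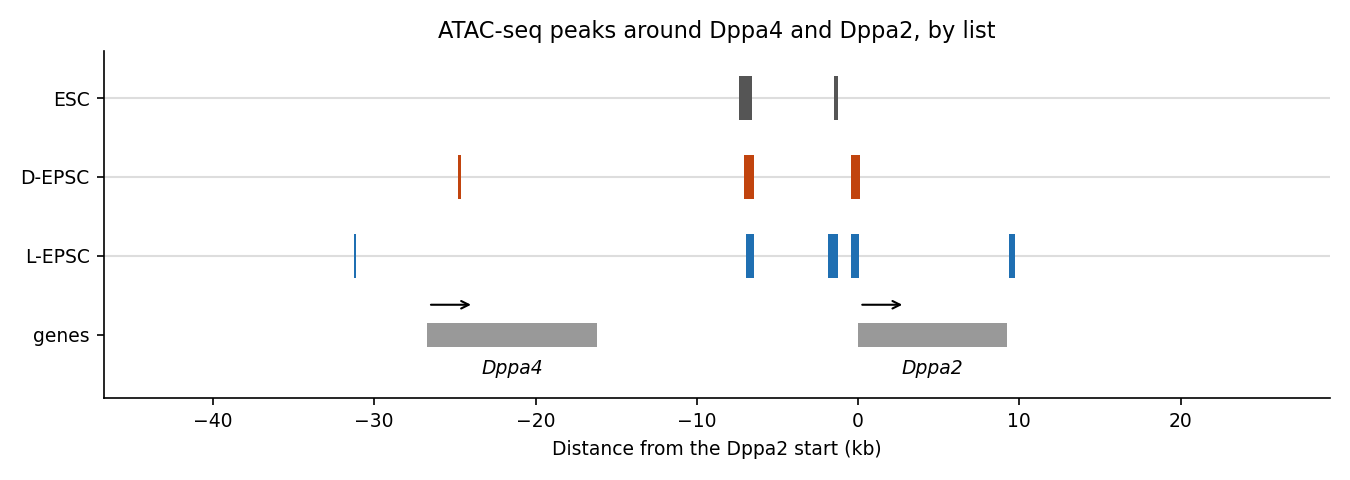
ATAC-seq peaks (coloured blocks, to scale) of the ESC, D-EPSC and L-EPSC lists around Dppa4 and Dppa2, by distance from the Dppa2 start in kb, with the genes in grey and arrows in the direction of transcription. The all-list region lies 6941 bp before the Dppa2 start, and the D-EPSC and L-EPSC lists have a peak over the start where the ESC list has none.

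Downstream of Dppa2 and within its window, only L-EPSCs had a peak, 362 bp wide and 106 bp past the gene's end. The whole Dppa2 window held 2 ESC peaks, 2 D-EPSC peaks and 4 L-EPSC peaks, where the median coding gene had 2, 3 and 2. A window is longer for a longer gene, and gene length was not matched. Of the 3 lists, L-EPSCs had the largest total peak width in the Dppa2 window of 49.2 kb, at 1934 bp, against 1060 bp for the ESC list and 1102 bp for the D-EPSC list. The next peaks past the end of Dppa2 lay beyond the 20 kb limit, where D-EPSCs and L-EPSCs had overlapping peaks of 190 and 211 bp, 36087 and 36067 bp past the end of Dppa2.

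Dppa4 had no peak over its start in any list. The nearest was a narrow D-EPSC peak of 149 bp in an intron, 1922 bp after the start, and the nearest in L-EPSCs was 123 bp wide and 4405 bp before the start. The nearest ESC peak lay 19311 bp downstream of a start, in the region between the genes. The peaks in the intron and before the start were among the narrower ones, at the 12.4th percentile of D-EPSC widths and the 5.94th of L-EPSC widths. They did not overlap each other. Thus the Dppa4 window held 2 ESC, 3 D-EPSC and 4 L-EPSC peaks, of which all but these 2 narrow ones also lay in the Dppa2 window.

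The 250 bp before the Dppa2 start had a GC content of 37.6%, and only 8.49% of coding genes had a lower value. Among the 2708 coding genes with a promoter GC under 40%, the ESC list had a start peak at 7.35% (95% Wilson interval 6.43 to 8.39, counting error only), the D-EPSC one at 10.4% (9.28 to 11.6) and the L-EPSC one at 9.75% (8.69 to 10.9). The coding sequences of Dppa2 and Dppa4, of 906 and 891 bases, were 50.7% identical in a global alignment, so the genes are far less alike than the Zscan4 copies.

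Zfp352 had 1 peak in its window, in D-EPSCs, and none in ESCs or L-EPSCs. At least 1 peak lay in the window of 75.1% of coding genes for ESCs, 82% for D-EPSCs and 80.7% for L-EPSCs, and 16% had none in any list. Gene length, on which the length of a window depends, was not matched. The Zfp352 peak was 175 bp wide, at the 17.8th percentile of its list, and ended 15142 bp before the start. ESCs had their nearest peak 67128 bp away and L-EPSCs 530057 bp away, a distance matched or passed by 15.5% and 1.58% of coding genes. The peak is at chr4:89870195-89870369 and the stretch before the start at chr4:89885261-89885510, both plus strand, mm9. Capitals mark TATAAA in the peak and a repeated 12-base word, AGGACAACACAC, in the stretch before the start.
Zfp352 D-EPSC peak: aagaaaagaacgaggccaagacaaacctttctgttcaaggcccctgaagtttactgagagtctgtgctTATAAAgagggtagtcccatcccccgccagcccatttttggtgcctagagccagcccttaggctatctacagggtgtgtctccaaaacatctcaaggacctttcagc
Zfp352 before the start: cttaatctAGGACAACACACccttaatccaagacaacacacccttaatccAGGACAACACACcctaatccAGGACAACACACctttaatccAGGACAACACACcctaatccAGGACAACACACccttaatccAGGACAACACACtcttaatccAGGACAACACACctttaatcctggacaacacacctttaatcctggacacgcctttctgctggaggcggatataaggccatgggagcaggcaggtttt
The 12-base word occurred 7 times in the 250 bases, so the sequence before the Zfp352 start is a tandem array. It was nevertheless unique in mm9 at the read length, since all 150-base words within 1 kb of the start were found once in the genome, and no list had a peak there. Farther upstream, the Zfp352 bins of 500 bp centred at -4250 and -3750 bp from the start held 0% unique words and that at -3250 bp 0.8%. The 250 bases had a GC content of 47.2%. Of the 5315 coding genes with a promoter GC from 40 to under 50%, 30.9%, 39.8% and 37.4% had a start peak in the 3 lists, in the order ESC, D-EPSC, L-EPSC.

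**Figure D2:**
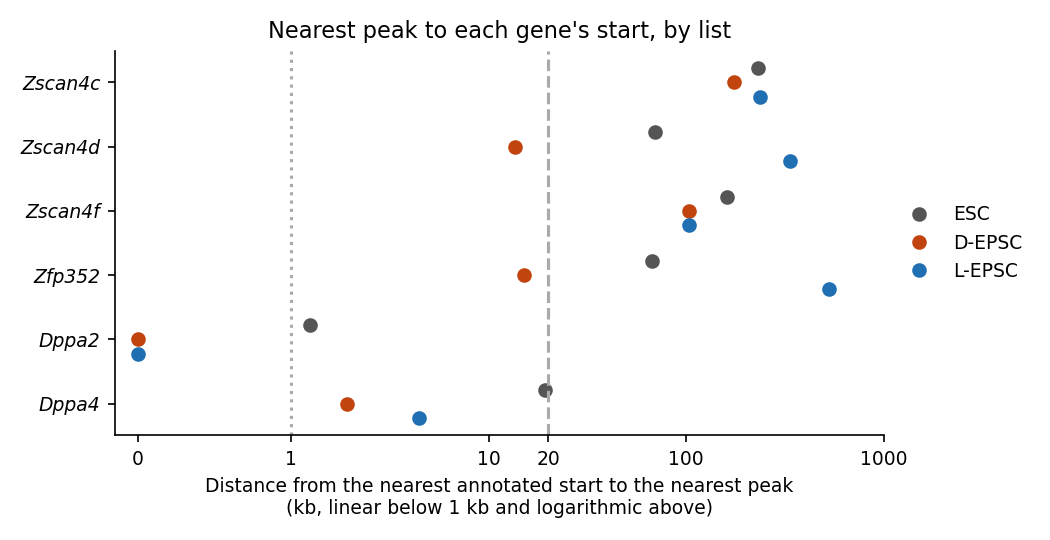
Distance in kb from each gene's nearest annotated start to the nearest peak of each list (points), on an axis that is linear below 1 kb and logarithmic above. The dotted line marks 1 kb and the dashed line 20 kb. Dppa2 is at 0 in D-EPSCs and L-EPSCs, and the D-EPSC point is closest to the start for the other 5 genes, with the L-EPSC point almost level at Zscan4f.

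Among the Zscan4 members, Zscan4d had a single peak, in D-EPSCs, and Zscan4c and Zscan4f had none in any list. The D-EPSC peak was 672 bp wide, at the 78.0th percentile of its list, and its near edge was 13586 bp before the Zscan4d start. It held no CpG dinucleotide, and its GC content of 43.0% was higher than that of 3.03% of D-EPSC peaks. The nearest peaks of ESCs and L-EPSCs lay 69767 and 334971 bp from that start. From Zscan4c the nearest peak was 230170 bp away for ESCs, 173989 bp for D-EPSCs and 236134 bp for L-EPSCs. From Zscan4f it was 161833, 102906 and 103181 bp away. Each of these 6 distances was matched or passed by 4.14% to 8.81% of coding genes. The whole Zscan4 cluster of 542 kb held 1 ESC peak, 1 D-EPSC peak and 0 L-EPSC peaks, where the mean density of each list would give 5.91, 10.2 and 9.51. The ESC peak, 168 bp wide, lay between Zscan4d and Zscan4e and outside all member windows.

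These absences need to be read with the repeats of the cluster, since the authors dropped reads of low mapping quality. A word of 150 bases, the read length, was called unique when it occurred once in mm9 on either strand. Over the whole Zscan4 cluster 63.5% of words were unique, and the peak numbers given by the mean density make no allowance for the rest. In the windows, 49.3% of words were unique at Zscan4c, 87.0% at Zscan4d and 43.9% at Zscan4f, against 96.0% at Zfp352, 99.5% at Dppa2 and 99.8% at Dppa4. Within 1 kb of the start the shares were 53.0%, 92.2% and 46.9% for the 3 Zscan4 members and 100% for Zfp352, Dppa2 and Dppa4. Over the gene itself they were 35.0% at Zscan4c and 13.7% at Zscan4f and 91.4% at Zscan4d. Only 3.52% of coding genes had a lower share at the start than Zscan4c, 3.27% than Zscan4f and 7.38% than Zscan4d. The coding sequences of Zscan4c and Zscan4f, of 1521 bases each, differed at 6 bases, and each differed from Zscan4d at 35. Zscan4d, the member with a peak in its window, had the largest share of unique words of the 3. Its window too had a stretch of repeated words before the gene, and its start, at 92.2%, had no peak in any list. Whether uniqueness bears on the Zscan4d peak was not tested. All words that touched any of the 12 peaks were unique.

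The uniqueness of a start was related to the presence of a peak over all coding genes. Of the 371 genes with 10 to under 50% unique words at the start, the bin that holds Zscan4f, 1.62% had an ESC start peak, 2.43% a D-EPSC one and 2.43% an L-EPSC one. In the bin of Zscan4c, from 50 to under 90%, the shares of 769 genes were 11.7%, 16.8% and 15.0%. In the bin of Zscan4d, Zfp352, Dppa2 and Dppa4, at 90% or more, they were 55.7%, 68.2% and 65.4% of 20841 genes. The 250 bp before the starts of Zscan4c, Zscan4d and Zscan4f had a GC content of 44%, 46.4% and 44%. Of coding genes with a promoter GC from 40 to under 50%, 30.9%, 39.8% and 37.4% had a start peak, in the order ESC, D-EPSC, L-EPSC. The GC content of the genes was not held constant across the uniqueness bins. Uniqueness and GC content were taken at a gene's outermost start, whereas a start peak could lie at any annotated start.

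**Figure D3:**
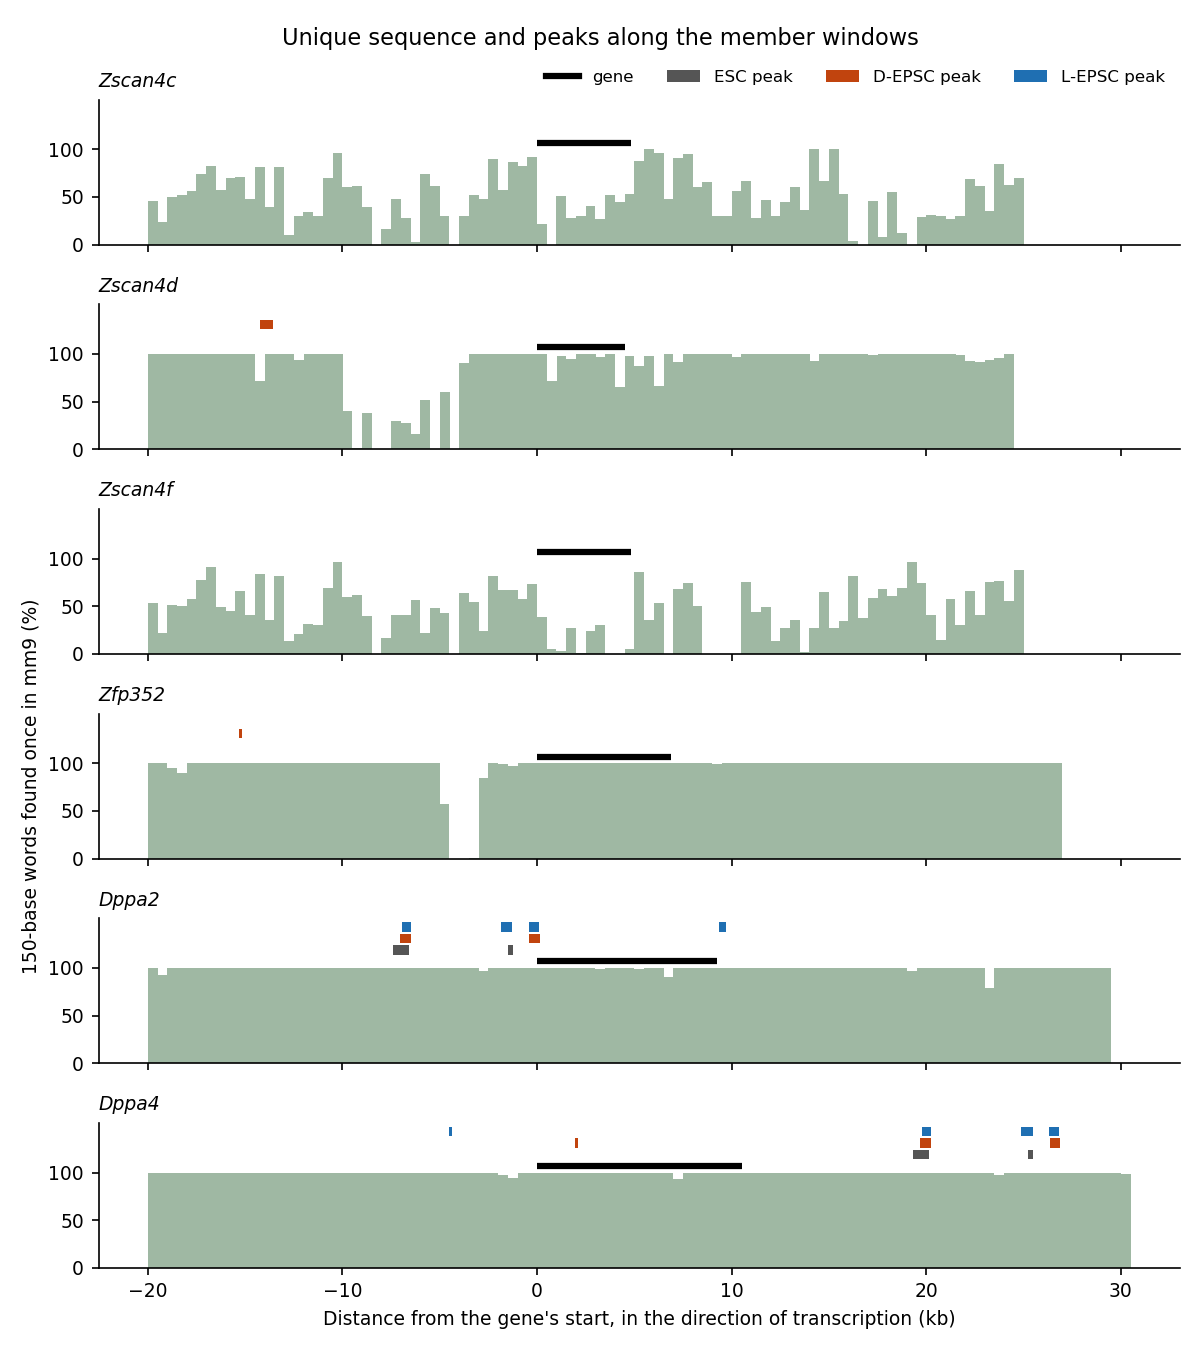
Share of 150-base words found once in mm9 (green bars, %, 500 bp bins) along the window of each gene, by distance from its start in kb in the direction of transcription, with the gene in black and the peaks of each list in colour. Bars are low and broken at Zscan4c and Zscan4f, near 100% over most of the Zscan4d, Zfp352, Dppa2 and Dppa4 windows, with gaps before the Zscan4d and Zfp352 genes.

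**Figure D4:**
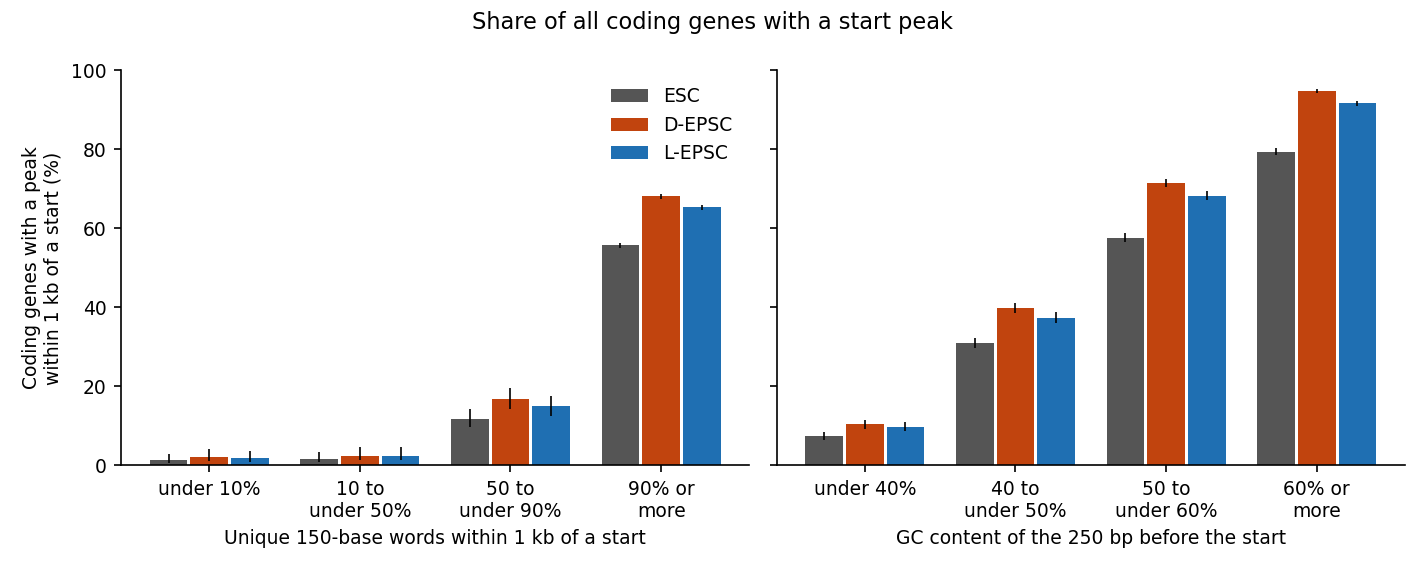
Share of all coding genes with a peak within 1 kb of any annotated start (%, bars, with 95% Wilson intervals) in each list. Genes are binned by the share of unique 150-base words at the outermost start (left) and by the GC content of the 250 bp before it (right). The share rises from 1.30% to 55.7% in ESCs between the lowest and the highest uniqueness bin, and from 7.35% to 79.5% between the lowest and the highest GC bin.

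The D-EPSC peak near Zscan4d belongs to a sequence that is repeated beside the other copies. The central 300 bases, at chr7:11765268-11765567 on the minus strand, which is the strand of Zscan4d, are shown without capitals since no searched motif was in them.
Zscan4d D-EPSC peak: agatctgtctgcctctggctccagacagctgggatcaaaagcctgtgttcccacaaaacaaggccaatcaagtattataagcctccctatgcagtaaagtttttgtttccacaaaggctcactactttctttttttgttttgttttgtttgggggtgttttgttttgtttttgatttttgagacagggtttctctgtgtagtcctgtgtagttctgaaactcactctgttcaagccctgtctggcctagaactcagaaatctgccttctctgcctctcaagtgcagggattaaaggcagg
A search with blastn of the whole peak within the cluster found near full-length matches before every other annotated copy. The match was 88.6% identical over 673 aligned bases at 8004 bp before the Zscan4c start and, equally, at 8005 bp before the Zscan4f start. It was 92.01% identical at 7753 bp before Zscan4e and 91.1% at 14888 bp before Zscan4b. The Zscan4c and Zscan4f matches held 0% unique 150-base words, whereas those near Zscan4e and Zscan4b held 68.4% and 73.5%. Another 2 long matches lay elsewhere in the cluster, outside the member windows, 89.4% identical over 690 aligned bases and 92.3% over 557, and all their words were unique. None of the 6 matches overlapped a peak in any list. At Zscan4c and Zscan4f the counterpart of the D-EPSC peak is thus a place where a single read of 150 bases has no unique position in mm9, although a mate outside it could place the pair. At the matches with unique words no peak was listed either. A word counted as unique even if nearly identical to another, and whether such reads passed the authors' mapping quality limit was not tested. At 50 bases, 85.3% of the words of the Zscan4d peak itself were unique.

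The GC content of the member peaks ran from 39.0% to 53.0%, and all 12 were below the median of their list, which was 55.4% for ESCs, 55.2% for D-EPSCs and 54.6% for L-EPSCs. Of the 8 fixed motifs, which are spelled out with the processing, the nuclear receptor motif AGGTCA was in the 400 bp around the midpoint of both peaks over the Dppa2 start, of the Zfp352 peak and of 3 further L-EPSC peaks near Dppa2. Of these, the match in the all-list region also lies inside the D-EPSC peak there, beyond the 400 bp around that peak's own midpoint, so it does not set the L-EPSC peak apart. The match at Zfp352 lies in the 400 bp window but past the end of the narrower peak. The motif was in 22.0%, 23.3% and 24.1% of all ESC, D-EPSC and L-EPSC peaks. The Sox letters CATTGT were in 2 L-EPSC peaks near Dppa2, those before and after the gene, and in 17.1% of all L-EPSC peaks. No other motif of the set was found in these windows, and TATAAA was in 3 of them, those of the Dppa2 start and of Zfp352.

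Other genes of the two-cell stage and its regulators put these counts in context. Of the other Zscan4 copies, Zscan4b and Zscan4e were in the annotation and had no start peak in any list, with 69.8% and 70.1% unique words at the start. Of 22 further two-cell-stage genes in the annotation, 2 had an ESC start peak, 4 a D-EPSC one and 3 an L-EPSC one, where 52.3%, 64.2% and 61.5% of all coding genes had one. No list had a start peak at 18 of the 22, against 34.4% of all coding genes. The 2 with a difference between the lists were Hmgn3, a nucleosome-binding protein, with a peak over its start in both EPSC lists and the nearest ESC peak 58822 bp away, and Sp110, with one in D-EPSCs at 623 bp. At Sp110 the ESC and L-EPSC peaks were 1982 and 1914 bp from the start, past the limit of 1 kb. Dux, which Dppa2 and Dppa4 act on, had a start peak in every list, with 77.0% unique words at its start. Of 21 such genes with a measured share, 11 had under 90% unique words at the start.

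The repressors of the two-cell-like state, chromatin factors such as Trim28, Setdb1 and Kdm1a, mostly had a start peak. All 21 were in the annotation, and 19 had an ESC start peak, while the D-EPSC and L-EPSC lists had one at all 21, beside 52.3%, 64.2% and 61.5% of all coding genes. Only 2 of the 21 had under 90% unique words at the start, and the all-gene shares were not matched for uniqueness or promoter GC content. The exceptions in ESCs were Pias4, a SUMO ligase, whose nearest ESC peak was 1413 bp from the start, and E2f6, a repressor that recruits Polycomb-type complexes, with the nearest ESC peak 82943 bp away. Thus Dppa2, Hmgn3, Pias4 and E2f6, as well as the markers Nanog and Col1a1, had a start peak in D-EPSCs and L-EPSCs but not in ESCs, a pattern found at 9.09% of all coding genes.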

How the data were processed

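ATAC-seq peaks of ESCs, D-EPSCs and L-EPSCs were analysed, from 6 libraries with 150 bp paired reads. The authors aligned reads to mm9 with Bowtie2 2.3.5, used SAMtools 1.10 to drop improper pairs and reads mapped with low confidence, and ran MACS with default settings. The deposited values are peak start and end positions (unit: other, 4 BED columns, no score). How replicates were merged, duplicate removal, Tn5 shifting and blacklisting are not given in the sources used here. Missing depth or duplicates could change which weak peaks were listed. Technical replicates cover no culture-to-culture variation.

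The 6 genes, gene lists and tests were chosen with earlier results of these data known. Named genes were the members, genes overlapping their windows and comparison genes whose start peak differed between lists; Dux, Trim28, Setdb1, Kdm1a, Zscan4b and Zscan4e were named after their values were seen. Peaks of the autosomes and sex chromosomes were overlapped by at least 1 bp with GENCODE M1 genes on NCBIM37 (mm9) and merged across lists where they overlapped. A start peak lay within 1 kb of any annotated start, while unique words and promoter GC content were taken at the gene's outermost start. Older symbols were matched through a RefSeq table. Of the fixed lists, Zscan4a, Tcstv1 and Tcstv3 were not matched in the annotation, and Tmem92 was matched only to Tmem92-ps. Exact words of 150 bases were counted in NCBIM37, a C57BL/6J reference, while the cells are 129SV; near-identical words and mate pairs were not modelled. Motifs were searched on both strands without mismatch: ATGCAAAT (octamer), CATTGT (Sox), TGCACAC (Zscan4), TCAAGGTCA (Esrrb, which contains the next motif), AGGTCA (nuclear receptors), GATTNAATC (Dux core), GGGTGTGG (Klf) and CACGTG (E-box). TATAAA was added after the sequences were seen. Sequences came from NCBIM37, and coding sequences from GENCODE M1. Only sequences that the results turn on are printed, and 1 such sequence is not reported here. Scripts used Python 3.11.15, numpy 2.4.6, pandas 2.3.3, pysam 0.24.0, Biopython 1.88 and blastn 2.17.0 and were tested on simulated data. Intervals are 95% Wilson intervals. No test was possible with 1 list per state.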

Additional observations from a re-analysis of the deposited data

How the results depend on the processing

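No paired analysis was possible because each state has a single peak list with no value per replicate, and no replicate could be left out for the same reason. Windows of 5 kb left 1 ESC, 2 D-EPSC and 4 L-EPSC peaks. With the widest peaks of each list, as many as in the shortest list, ESCs had 2 peaks, D-EPSCs 3 and L-EPSCs 4, and with the widest 50% they had 1, 3 and 4. Within 2.5 kb of a start, 1 member had a peak in ESCs and 2 in D-EPSCs, because the ESC peak before Dppa2 and the D-EPSC peak in the Dppa4 intron then counted. The Dppa2 start peak in both EPSC lists was present under 500 bp, 2.5 kb and the widest peaks, but the difference from ESCs was absent at 2.5 kb. Requiring a reciprocal overlap of 50% split the ESC and L-EPSC region before Dppa2, which gave 9 regions, 7 of them in 1 list, and ended both the class of ESCs with L-EPSCs and the absence of a region in ESCs alone. Over all annotated genes, including non-coding ones, the share with a peak in the window was 62.7%, 71% and 69.5% in ESCs, D-EPSCs and L-EPSCs, and at a start 35.7%, 44.8% and 42.8%.

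Shorter words lowered the share of unique sequence. With 100 bases, the windows of Zscan4c, Zscan4d, Zscan4f, Zfp352, Dppa2 and Dppa4 had 35.2%, 78.9%, 30.3%, 94.5%, 98.4% and 98.7%, and with 50 bases 16.6%, 55.4%, 14%, 87%, 92.9% and 92.3%. At the starts of the first 4 and of Dppa4 the values were 38.4%, 84.5%, 31%, 99.3% and 98.8% with 100 bases. With 50 bases they were 19.5%, 56.2%, 16.1%, 87.1%, 98.6% and 93.2% in the order of the windows. Of 75 alternative values, 39 stayed close to the main value, which means within a factor of 1.5 for a count and within the counting interval for a share. For unique words that interval treats overlapping words as independent and is narrow, so the tally says little about how stable those shares are. The unknown depth of each list limits what the absence of a peak can show.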
